A study of Mus musculus with 6 samples.

Results

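Extracellular matrix genes were compared between spleens of NOD.B10 mice, a strain used as a model of primary Sjögren's syndrome (pSS), and of BL/10 mice, its healthy control. The members were chosen by symbol, as all genes named Col or Lam with chain numbers and 18 further matrix genes, and 73 of the 47729 genes in the table met this rule. They are 44 collagen chains, 11 laminin chains and 18 proteoglycans, linkers and glycoproteins. All 73 had a role assigned, and 64 passed the filter on low counts and were tested.

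RNA-sequencing had been done on spleens of untreated females, with 3 libraries of NOD.B10 (NOD.B10Sn-H2b/J) and 3 of BL/10 (C57BL10/SnJ). The NOD.B10 strain has the NOD background with the H2 complex of the B10 strain, so both groups share the H2b haplotype. The title and strain field of each library name one strain and its description and column name the other. Column names were followed here, and under the titles each direction below would be reversed. All NOD.B10 libraries are labelled 26 weeks of age by this match, as is BL/10 replicate 1, while BL/10 replicates 2 and 3 are labelled 36 weeks. The study's methods describe the controls as matched in age, and which of these is right could not be settled from the files. If the labels hold, age was partly confounded with strain. Values without the libraries labelled 36 weeks are given for some genes only, and those of other genes can differ as well. The labels do not say whether the libraries came from one litter or one day, and the p-values measure the spread between these libraries only.

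The spleen has little matrix by mass, but its architecture rests on it. The capsule and trabeculae hold fibrillar collagen, elastin and smooth muscle. Reticular fibroblasts lay a network of thin fibers, in which collagens type I and III are ensheathed by basement membrane proteins (laminins, collagen type IV, nidogen and perlecan), and sinuses and arterioles have basement membranes of their own. Some matrix molecules also act as danger signals. Biglycan and decorin, released from the matrix, can be sensed by TLR2 and TLR4, and the study also treated spleen cells with decorin.

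Levels are given as CPM (a count divided by the size of its library) after TMM normalization, and levels of different genes are compared per kilobase of exon. A log2 fold change is of NOD.B10 over BL/10. Its standard error (SE) was derived from the test, as the size of the log2 fold change divided by the square root of the F statistic. Adjusted p is from edgeR's quasi-likelihood test with Benjamini-Hochberg adjustment over all 15330 tested genes. Library totals were between 15662712 and 18298451 counts, and 3 counts, taken as the floor of detection, were between 0.164 and 0.192 CPM before TMM scaling. This floor covers counting error only. Together the 73 matrix genes took 0.331%, 0.282% and 0.347% of each NOD.B10 library and 0.222%, 0.213% and 0.290% of each BL/10 library. The strains overlapped in this share, because BL/10 replicate 3 lay above NOD.B10 replicate 2. In whole spleen, more matrix-producing cells and more RNA per cell cannot be told apart.

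An adjusted p under 0.05 was found for 16 of the 64 tested matrix genes (25.0%), against 17.3% of all tested genes. Of these, 10 were higher in NOD.B10 (15.6%, background 9.11%) and 6 were lower (9.38%, background 8.22%). Col22a1, 1 of the 6, passed the low-count filter through BL/10 alone. The libraries of the strains did not overlap for 27 matrix genes (42.2%), against 38.0% of all genes. NOD.B10 lay above for 17 of them (26.6%, background 20.5%) and BL/10 for 10 (15.6%, background 17.5%). The distance between these shares and the background was not tested, and it varied with the libraries used. Without the libraries labelled 36 weeks 21.5% of matrix genes and 6.19% of all genes were called, without NOD.B10 replicate 1 these were 18.8% and 8.12%, and without BL/10 replicate 1 they were 26.6% and 26.3%. The median log2 fold change of the 64 genes was 0.13, with 40 values above 0 and 24 below, beside a median of 0.00 over all tested genes. The results below concern single genes, and in these the strains differed by up to 7.13-fold in genes above the detection floor in both. DESeq2, the package used by the study, called 23 of the 64 genes (35.9%, against 21.7% of all genes), which included all 16.

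**Figure D1:**
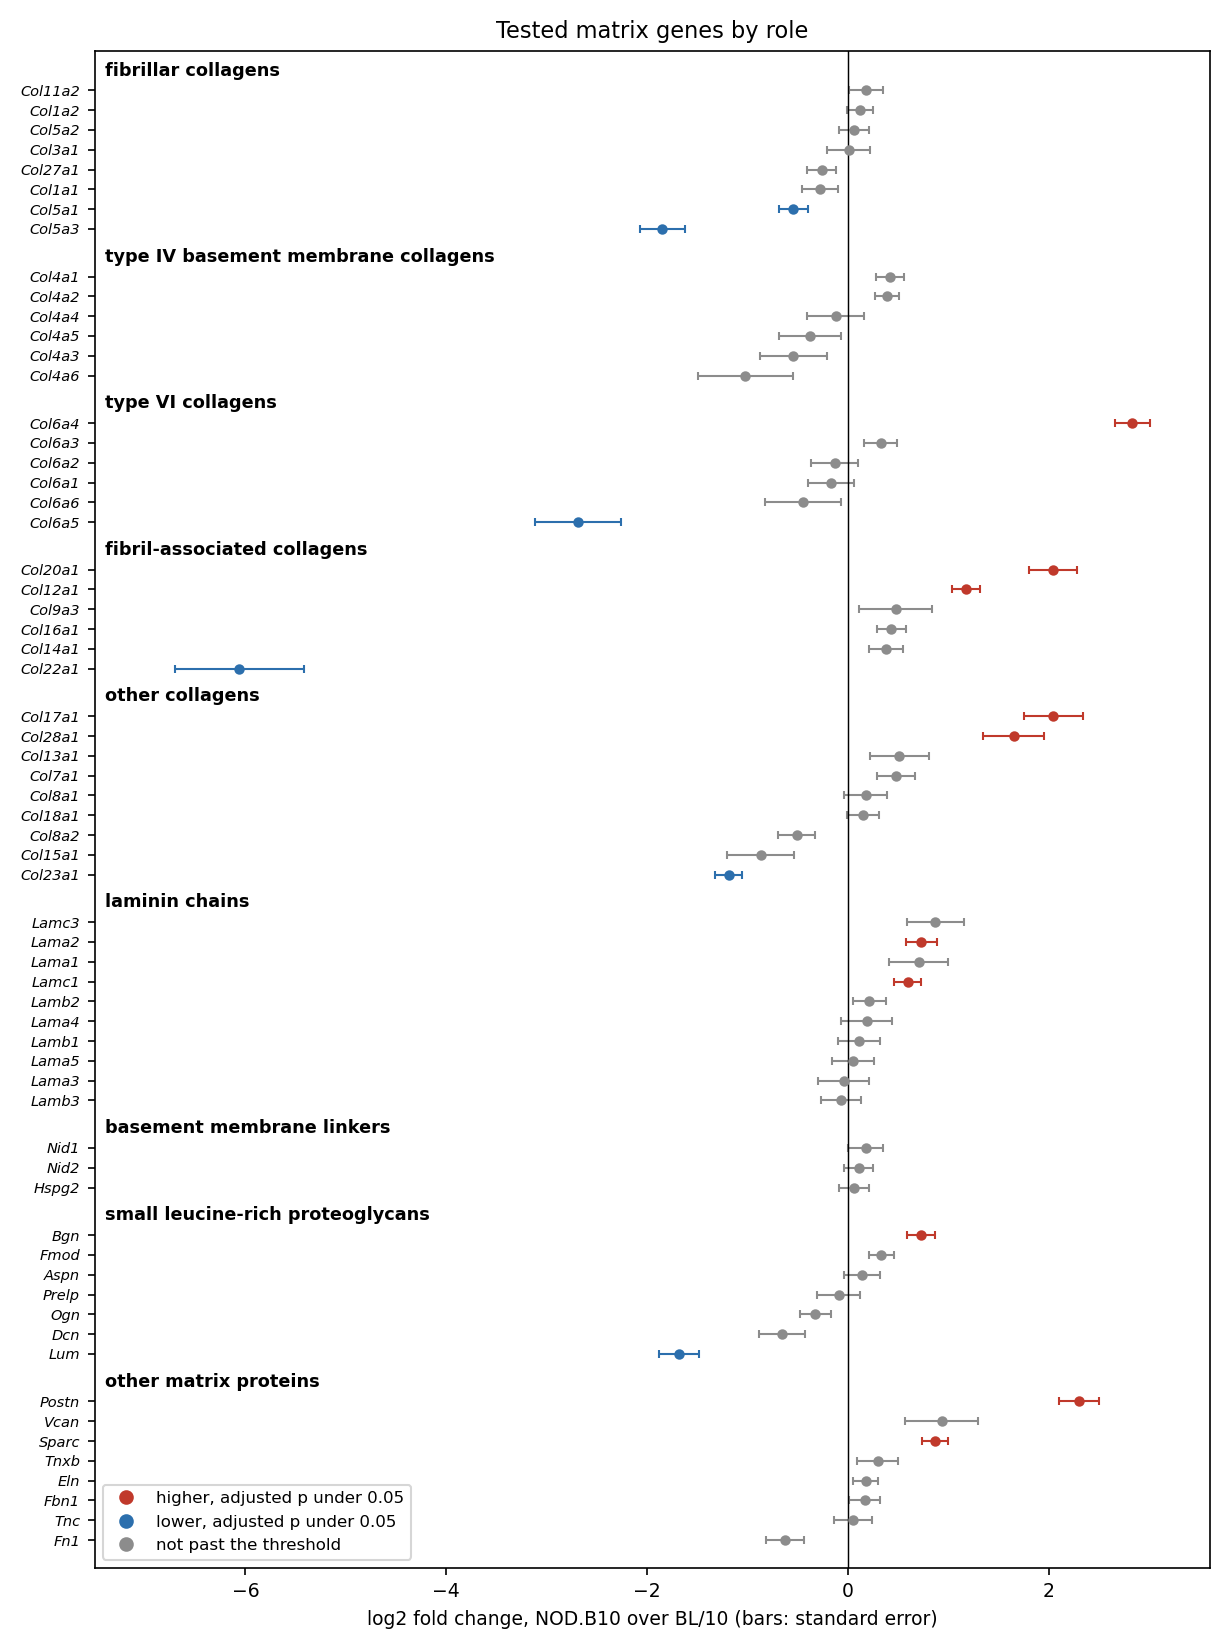
Log2 fold change (NOD.B10 over BL/10) of 63 tested matrix genes, grouped by role, with horizontal bars for the standard error. Red points mark the 10 genes higher and blue points the 6 genes lower in NOD.B10 at an adjusted p under 0.05. Most roles hold genes on both sides of 0, from -6.06 for Col22a1 to 2.83 for Col6a4. Col22a1 passed the low-count filter through BL/10 alone.

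The marker genes of other cells and tissues were summed per library to describe what else differed. Spleen cells were present in all libraries, with B cell marker sums between 2746 and 4878 CPM and macrophage marker sums between 2544 and 3530 CPM. The macrophage list (9 genes, 2 higher and 0 lower) summed to 3000.5 to 3530 CPM in NOD.B10 and 2544 to 2965 CPM in BL/10, a narrow gap. Its marker Adgre1 went the other way, with means of 138 CPM in NOD.B10 and 178 CPM in BL/10 and no overlap. The smooth muscle list (8 genes, all tested, 4 higher and 0 lower) summed to 531 to 603 CPM in the NOD.B10 libraries and 365 to 476 CPM in those of BL/10, with no overlap. The reticular and fibroblast list (9 genes, 8 tested, 3 higher and 0 lower) summed to 769 to 890 CPM in the NOD.B10 libraries and 600 to 822 CPM in those of BL/10. Its marker Ccl21a had 1 count in 1 library and 0 in the others, and it was the untested gene. Carried-over tissue was uneven within BL/10. Pancreas acinar genes (14 genes, 12 tested, all 12 lower in NOD.B10) summed to 13680, 2076 and 112 CPM in BL/10 replicates 1, 2 and 3, against at most 31.5 CPM in NOD.B10. Adipocyte and mesothelium markers were highest in BL/10 replicate 3, with 273 and 139 CPM, against at most 73.7 and 67.6 CPM in the other libraries. No gene of these lists was at 0 in every library. The part of these tissues in the matrix results was not tested beyond the fits without each library.

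**Figure D2:**
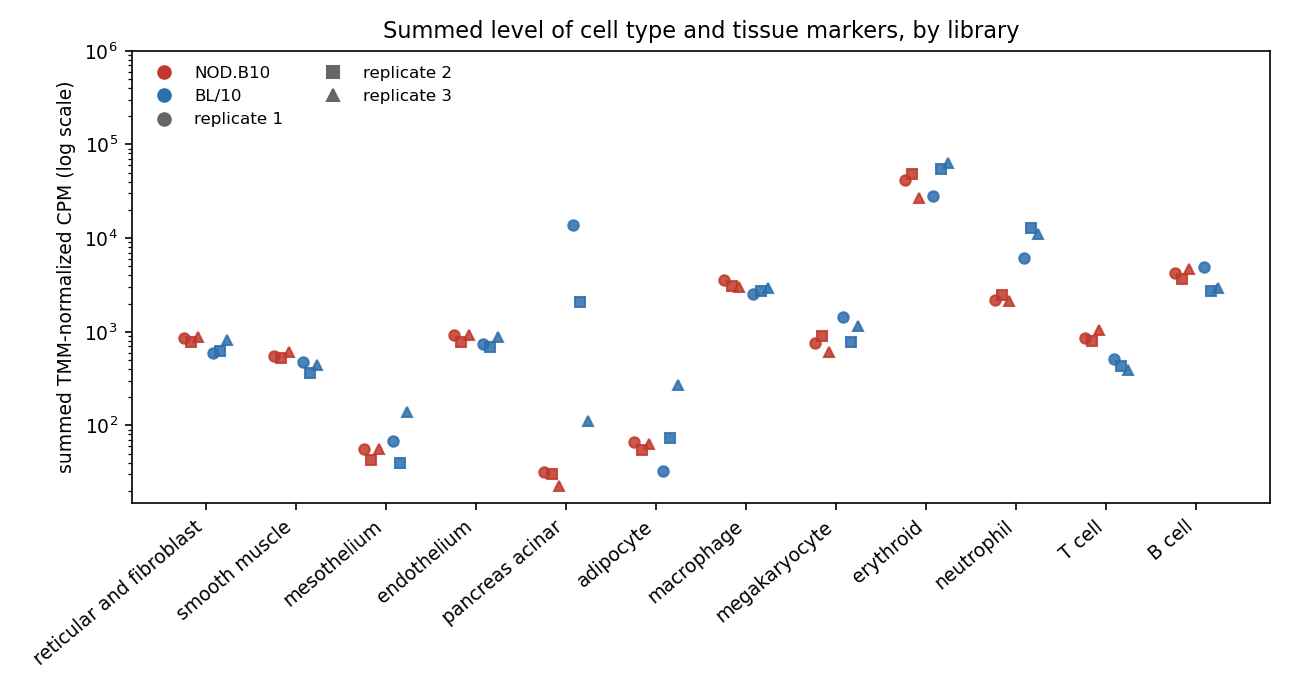
Summed TMM-normalized CPM of each marker list (log axis), with one point per library, red for NOD.B10 and blue for BL/10, and symbols for the replicate. Smooth muscle, macrophage and T cell sums lay higher in all NOD.B10 libraries, for macrophages by a narrow margin. Neutrophil and pancreas sums lay higher in all BL/10 libraries. BL/10 replicate 3 had the highest adipocyte and mesothelium sums.

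Transcripts of periostin, SPARC and biglycan were higher in NOD.B10 spleens. Those of SPARC and biglycan had the highest levels per length of all matrix genes, while Postn ranked 14 (6.60 CPM per kb over the 6 libraries). Postn (ENSMUSG00000027750), on chromosome 3 from 54361109 to 54391037 of GRCm38, encodes periostin, a matricellular protein made by fibroblasts in remodeling tissue. It was present at 104, 101 and 81.8 CPM in the NOD.B10 libraries and 25.1, 14.8 and 18.2 CPM in the BL/10 libraries. Each NOD.B10 library was thus over 3 times as high as any BL/10 library. The means were 95.5 ± 12 CPM (SD, n = 3) and 19.4 ± 5.26 CPM (SD, n = 3), a 4.93-fold difference. Its log2 fold change of 2.30 (SE 0.20, edgeR adjusted p = 0.000361) was past the threshold in all 15 alternative fits, where it lay between 1.93 and 2.52. Its promoter is shown because Postn had the smallest adjusted p after Col6a4. The RefSeq window chr3:54360857-54361156 (GRCm38.p6, plus strand) runs from 250 bases before to 50 after the start, and the capitals mark its TATA box (TATAAA), which 13.6% of all 32851 RefSeq promoter windows of mouse hold on either strand.
Postn: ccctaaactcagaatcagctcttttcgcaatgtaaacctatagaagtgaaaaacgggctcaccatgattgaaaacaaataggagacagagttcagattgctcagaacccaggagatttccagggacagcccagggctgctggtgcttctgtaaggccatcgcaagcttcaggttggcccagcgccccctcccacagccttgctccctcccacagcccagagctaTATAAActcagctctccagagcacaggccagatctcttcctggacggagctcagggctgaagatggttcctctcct

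Sparc (ENSMUSG00000018593), on chromosome 11 from 55394500 to 55420080, encodes a collagen-binding protein of basement membranes and had the highest level per length of all matrix genes (120 CPM per kb over the 6 libraries). Its libraries had 569, 472 and 522 CPM in NOD.B10 and 263, 267 and 330 CPM in BL/10. There was no overlap, and the fold change was 1.82 (log2 0.86, SE 0.13, edgeR adjusted p = 0.0046). It remained past the threshold in all 15 alternative fits. Sparc is also expressed by megakaryocytes. Their marker list held 8 genes, with 0 higher and 2 lower. It summed to 605 to 910 CPM in the NOD.B10 libraries and 779 to 1433 CPM in those of BL/10. These sums overlapped, and the part of megakaryocytes in the Sparc result was not tested.

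Biglycan was higher in NOD.B10, while decorin, its closest relative among the proteoglycans, had its higher values in BL/10. Bgn (ENSMUSG00000031375), on chromosome X from 73483602 to 73495933, encodes biglycan, a small leucine-rich proteoglycan that binds collagen and is sensed by TLR2 and TLR4. It was second in level per length (76.9 CPM per kb). The libraries had 597, 531 and 624 CPM in NOD.B10 and 343, 305 and 413 CPM in BL/10, a 1.65-fold difference with no overlap (log2 fold change 0.72, SE 0.14, edgeR adjusted p = 0.0121). Without NOD.B10 replicate 1 or 3 its adjusted p in edgeR was 0.0577 or 0.0542. Bgn and Sparc alone made up 34.3% to 35.8% of all matrix counts of a NOD.B10 library and 25.1% to 27.4% of those of a BL/10 library. Postn, Sparc and Bgn were higher in the same libraries as the smooth muscle, macrophage and T cell lists, of which the macrophage list differed by a narrow margin. The part of these cells in these results was not tested.

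Dcn (ENSMUSG00000019929), the decorin gene, on chromosome 10 from 97479500 to 97518162, was next in level per length (42.0 CPM per kb). It had 63.5, 50.6 and 89.7 CPM in NOD.B10 and 98.5, 89.9 and 133 CPM in BL/10. The lowest BL/10 library and the highest NOD.B10 library were nearly equal, and the threshold was missed (log2 fold change -0.66, SE 0.23, edgeR adjusted p = 0.0843). With DESeq2 its adjusted p was 0.0255, and in edgeR it was also past the threshold without a low-count filter (0.0387), with the replicate number as a block (0.00713) and without NOD.B10 replicate 3 (0.0422). Without the 36-week libraries it was 0.339. The highest Dcn library, BL/10 replicate 3, was also the one with the most adipocyte and mesothelium transcripts.

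Lum (ENSMUSG00000036446), the gene of lumican, lies next to Dcn on chromosome 10, from 97565501 to 97572703, with 47339 bases between them. Lumican is a small leucine-rich proteoglycan that regulates the thickness of collagen fibrils. It was lower in NOD.B10, with 1.5, 1.29 and 1.80 CPM there and 4.40, 5.36 and 5.06 CPM in BL/10. The BL/10 libraries lay between 4.40 and 5.36 CPM, and the part of carried-over tissue in this gene's difference was not tested. The fold change was 3.23 in favor of BL/10 (log2 -1.68, SE 0.20, edgeR adjusted p = 0.00173), and it was past the threshold in all 15 alternative fits. The counts behind it were low, at most 32 per NOD.B10 library and at most 89 per BL/10 library. Of the 7 small leucine-rich proteoglycans, Bgn was higher (14.3%, background 9.11%) and Lum was lower (14.3%, background 8.22%). Dcn, Fmod, Ogn, Prelp and Aspn did not pass the test.

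**Figure D3:**
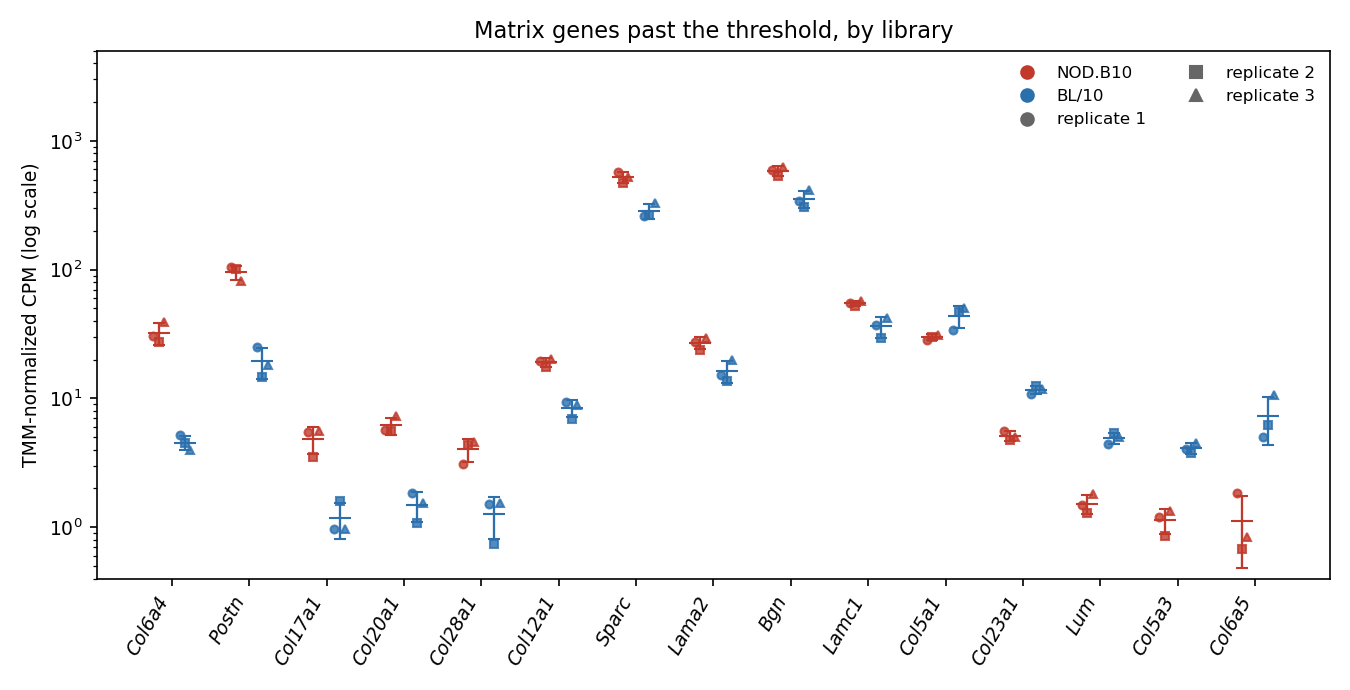
TMM-normalized CPM (log axis) of 15 of the 16 matrix genes past the threshold, ordered by log2 fold change, with one symbol per replicate, red for NOD.B10 and blue for BL/10, and horizontal ticks with bars for the mean and SD of 3 libraries. Col22a1 is left out because 2 of its NOD.B10 libraries had 0 counts. In each of the 15 genes the libraries of the strains do not overlap, and levels run from 0.676 CPM for Col6a5 to 624 CPM for Bgn.

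Type VI collagen makes beaded filaments that link cells to the surrounding fibrils. Its classical trimer is built from the chains of Col6a1, Col6a2 and Col6a3, and Col6a4, Col6a5 and Col6a6 encode chains thought to take the place of the Col6a3 chain. The classical chains did not differ detectably between strains (log2 fold changes -0.17, -0.13 and 0.32, adjusted p = 0.645, 0.724 and 0.197 from edgeR for Col6a1, Col6a2 and Col6a3), and the values of Col6a1 and Col6a2 turned positive without BL/10 replicate 3 or without the libraries labelled 36 weeks. Without BL/10 replicate 3 the adjusted p of Col6a3 was 0.0495. Of the alternative chains, Col6a4 and Col6a5 did, in opposite directions. Col6a4 (ENSMUSG00000032572) had 30.6, 27.3 and 39.3 CPM in NOD.B10 and 5.16, 4.49 and 3.98 CPM in BL/10. This 7.13-fold difference was the largest increase among the matrix genes (log2 fold change 2.83, SE 0.18, edgeR adjusted p = 8.32e-05). Col6a5 (ENSMUSG00000091345) had 1.85, 0.676 and 0.843 CPM in NOD.B10 and 5.0, 6.24 and 10.6 CPM in BL/10, a 6.46-fold difference in favor of BL/10 (log2 -2.69, SE 0.43, edgeR adjusted p = 0.00563). Both were past the threshold in all 15 alternative fits.

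Col6a4, Col6a5 and Col6a6 lie side by side on the minus strand of chromosome 9. Col6a6 runs from 105687809 to 105828160, Col6a5 from 105856070 to 105960643 and Col6a4 from 105989454 to 106096783, so that Col6a5 is 28811 bases from Col6a4. Col6a6 had 0.737 to 1.32 CPM in the NOD.B10 libraries and 1.07 to 2.27 CPM in those of BL/10 (log2 fold change -0.45, adjusted p = 0.435 from edgeR). Per kb of exon, Col6a4 exceeded Col6a5 in each NOD.B10 library (means of 3.8 and 0.119 CPM per kb). In BL/10 the order varied, with Col6a4 above Col6a5 in replicate 1, the library labelled 26 weeks (0.605 against 0.530 CPM per kb), and below it in replicates 2 and 3 (0.527 against 0.662 and 0.467 against 1.12 CPM per kb). The chains are paralogs, and reads that fit more than 1 of them were not counted for any. Their promoter windows are shown because these neighbors differed in opposite directions. For Col6a4 it is chr9:106096642-106096941 and for Col6a5 chr9:105960594-105960893 (GRCm38.p6, minus strand, as transcribed). The RefSeq start of Col6a4 is 92 bases from that of the counting annotation. Capitals mark the CCAAT box (CCAAT) and the GC box (GGGCGG) on either strand, which 37.4% and 35.7% of all promoter windows hold.
Col6a4: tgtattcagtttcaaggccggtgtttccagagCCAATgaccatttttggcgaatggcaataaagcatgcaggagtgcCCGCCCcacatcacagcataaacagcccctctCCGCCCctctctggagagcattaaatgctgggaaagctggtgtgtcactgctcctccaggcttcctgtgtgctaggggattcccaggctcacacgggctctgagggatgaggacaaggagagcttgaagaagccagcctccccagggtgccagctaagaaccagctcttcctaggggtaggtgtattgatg
Col6a5: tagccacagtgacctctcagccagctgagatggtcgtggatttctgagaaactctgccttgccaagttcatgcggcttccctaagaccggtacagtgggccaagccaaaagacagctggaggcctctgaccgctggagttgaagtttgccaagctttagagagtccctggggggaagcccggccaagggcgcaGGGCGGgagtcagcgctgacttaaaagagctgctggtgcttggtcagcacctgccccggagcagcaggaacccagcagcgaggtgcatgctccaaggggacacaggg
The Col6a4 window held 1 CCAAT box and 2 GC boxes, and the Col6a5 window 1 GC box.

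The fibrillar collagens give tissues tensile strength, and types I and III are the main ones of splenic trabeculae and reticular fibers. None of the 8 tested fibrillar chains was higher in NOD.B10 (background 9.11%). Of them, 2 were lower (Col5a1 and Col5a3, 25.0%, background 8.22%), and 6 did not pass the test. Col3a1 had 115, 98.3 and 130 CPM in NOD.B10 and 96.3, 90.9 and 155 CPM in BL/10, with overlap and a log2 fold change of 0.01 (SE 0.21, edgeR adjusted p = 0.988), a sign that turned under 7 of the 15 alternative fits. Col1a2 (log2 fold change 0.12, SE 0.13) and Col1a1 (-0.28, SE 0.18) overlapped as well, with adjusted p of 0.555 and 0.303 in edgeR. Col11a2, Col27a1 and Col5a2 overlapped too.

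Both lower chains belong to type V collagen, which starts fibril formation and sets fibril width. Col5a3 (ENSMUSG00000004098), on chromosome 9 from 20770050 to 20815067, had 1.20, 0.860 and 1.35 CPM in NOD.B10 and 4.07, 3.76 and 4.55 CPM in BL/10. The strains did not overlap, and the level in BL/10 was 3.63-fold that in NOD.B10 (log2 fold change -1.85, SE 0.22, edgeR adjusted p = 0.00177). Col5a1 had 28.5, 30.2 and 31.3 CPM in NOD.B10 and 34.0, 46.7 and 50.6 CPM in BL/10 (log2 fold change -0.54, SE 0.15, edgeR adjusted p = 0.0423). This call was lost without the libraries labelled 36 weeks, where its log2 fold change was -0.18 (adjusted p = 0.474 in edgeR), and in 5 of the 6 fits without a single library. The lowest BL/10 library for Col5a1 was the one labelled 26 weeks. Col5a2, the partner chain of Col5a1, had a log2 fold change of 0.06 (adjusted p = 0.814 in edgeR).

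Collagens of the fibril-associated group coat fibrils and link them to other matrix. Of their 9 genes, 6 were tested. Among these, 2 were higher (33.3%, background 9.11%), 1 was lower (16.7%, background 8.22%) and 3 did not pass. Col12a1, on chromosome 9 from 79598991 to 79718831, a chain found in load-bearing and remodeling tissue, had 19.4, 17.4 and 20.3 CPM in NOD.B10 and 9.34, 6.97 and 8.92 CPM in BL/10. It was 2.27-fold higher in NOD.B10 (log2 1.18, SE 0.14, edgeR adjusted p = 0.00161). Col20a1, on chromosome 2 from 180986535 to 181017540, had 5.68, 5.59 and 7.25 CPM in NOD.B10 and 1.85, 1.07 and 1.53 CPM in BL/10, a 4.16-fold difference (log2 2.04, SE 0.24, edgeR adjusted p = 0.00147). Both genes stayed past the threshold in all 15 alternative fits. Col14a1, the most abundant of the group (23.4 CPM per kb), had overlapping libraries and a log2 fold change of 0.38 (adjusted p = 0.158 in edgeR). Its adjusted p was 0.027 in edgeR without BL/10 replicate 3. Col16a1 (log2 fold change 0.43, adjusted p = 0.0791 in edgeR) and Col9a3 (0.47, adjusted p = 0.395 in edgeR) did not pass.

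Col22a1, a chain of tissue junctions on chromosome 15 from 71795795 to 72034227, was nearly unread in NOD.B10. Its counts were 0, 1 and 0 in NOD.B10 and 23, 32 and 36 in BL/10. Scaled for library size, the ratio of the summed counts was 90.8 in favor of BL/10, with a 95% interval from 15.9 to 3624 for counting error (exact binomial). It was the only matrix gene that passed the low-count filter through one strain alone, with under 10 counts in each NOD.B10 library. Its adjusted p was 0.000942 in edgeR, and it was left out by a minimum of 10 counts in every library.

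Among the remaining collagens, the transmembrane chains Col17a1 and Col23a1 differed in opposite directions. Col17a1, a hemidesmosome collagen of epithelia on chromosome 19 from 47646344 to 47692094, had 5.44, 3.50 and 5.56 CPM in NOD.B10 and 0.978, 1.61 and 0.966 CPM in BL/10. This was a 4.08-fold increase (log2 2.04, SE 0.29, edgeR adjusted p = 0.00354). Col23a1, on chromosome 11 from 51289920 to 51583918, had 5.62, 4.73 and 5.0 CPM in NOD.B10 and 10.8, 12.4 and 11.9 CPM in BL/10, a 2.29-fold decrease (log2 -1.19, SE 0.13, edgeR adjusted p = 0.00126). Both calls held in all 15 alternative fits. Col28a1, a chain of peripheral nerve basement membranes on chromosome 6 from 7997808 to 8192617, had 3.11, 4.36 and 4.61 CPM in NOD.B10 and 1.52, 0.738 and 1.53 CPM in BL/10. Its 3.18-fold increase (log2 1.65, SE 0.30, edgeR adjusted p = 0.0101) fell short of the threshold only without the libraries labelled 36 weeks (adjusted p = 0.0759 in edgeR). The 6 others of this group that were tested did not pass. They were Col7a1, the anchoring fibril collagen, Col8a1 and Col8a2 of vessel walls, the transmembrane Col13a1, and Col15a1 and Col18a1 of basement membrane zones, with log2 fold changes between -0.87 and 0.51.

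Basement membranes consist of laminin and type IV collagen networks joined by nidogen and perlecan. Of the 11 laminin chains, all tested, 2 were higher in NOD.B10 (18.2%, background 9.11%) and none was lower (background 8.22%). These shares rest on few genes. Lamc1, the gamma chain shared by most laminins, on chromosome 1 from 153218922 to 153332786, had 55.0, 52.4 and 56.9 CPM in NOD.B10 and 37.1, 29.3 and 42.4 CPM in BL/10. It was 1.51-fold higher (log2 0.59, SE 0.13, edgeR adjusted p = 0.0231), and this was lost without NOD.B10 replicate 1 or 3 (adjusted p = 0.081 and 0.0863 in edgeR). Lama2, the alpha chain of muscle and stromal laminin, on chromosome 10 from 26980036 to 27619758, had 27.4, 23.9 and 29.5 CPM in NOD.B10 and 15.3, 13.7 and 19.7 CPM in BL/10. It was 1.66-fold higher (log2 0.73, SE 0.15, edgeR adjusted p = 0.0177) and lost the call without NOD.B10 replicate 1 or 3 or BL/10 replicate 2 (adjusted p between 0.0531 and 0.0709 in edgeR). The beta chains Lamb1 and Lamb2, the alpha chains Lama4 and Lama5, and the linkers Nid1, Nid2 and Hspg2 (perlecan) had overlapping libraries, with log2 fold changes between 0.05 and 0.21, and those of Lamb1, Lama4 and Lama5 turned negative without single libraries. Lama1, Lama3, Lamb3 and Lamc3 had at most 5.57 CPM on average in either strain and did not pass. Both laminins were higher in the same libraries as the smooth muscle list (531 to 603 CPM against 365 to 476 CPM). The macrophage and T cell lists were also higher in all NOD.B10 libraries, the macrophage list by a narrow margin and with 2 of its 9 genes higher. The part of these cells in the laminin differences was not tested.

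Col4a1 had the highest level per length of all collagen chains (24.8 CPM per kb), and Col4a2, whose product joins it in the common type IV trimer, had 18.1 CPM per kb. Col4a1 had 232, 185 and 215 CPM in NOD.B10 and 138, 151 and 185 CPM in BL/10, and Col4a2 had 144, 123 and 141 CPM against 94.7, 97.0 and 119 CPM. For both genes the NOD.B10 libraries lay above all BL/10 libraries, by a narrow margin, and neither reached the threshold (log2 fold changes 0.41 and 0.39, adjusted p = 0.0797 and 0.0605 from edgeR). With DESeq2 both passed (adjusted p = 0.0448 and 0.035), as they did in edgeR without BL/10 replicate 3 (0.0402 and 0.0306). With limma-voom and with the replicate block Col4a2 passed (0.0441 in each) and Col4a1 did not (0.0559 and 0.0708). The other type IV chains, Col4a3 to Col4a6, were at 0.688 CPM per kb or lower, and none passed.

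The genes Col4a1 and Col4a2 are transcribed away from each other on chromosome 8, from 11198423 to 11312826 (minus strand) and from 11312805 to 11449287 (plus strand), and their first exons overlap by 22 bases. Reads in this overlap were not counted for either gene. The ratio of Col4a1 to Col4a2 counts per kb was between 1.30 and 1.43 in the 6 libraries with overlap between strains (1.38 ± 0.0459 and 1.35 ± 0.05, SD, n = 3 each, exact two-sided permutation p = 0.6, where 0.1 is the smallest possible). Both promoter windows are shown because they cover one shared region. The window of Col4a1 is chr8:11312777-11313076 and that of Col4a2 chr8:11312555-11312854 (GRCm38.p6, each as transcribed), and they have 78 bases in common on opposite strands. Capitals mark the CCAAT box and the GC box as above.
Col4a1: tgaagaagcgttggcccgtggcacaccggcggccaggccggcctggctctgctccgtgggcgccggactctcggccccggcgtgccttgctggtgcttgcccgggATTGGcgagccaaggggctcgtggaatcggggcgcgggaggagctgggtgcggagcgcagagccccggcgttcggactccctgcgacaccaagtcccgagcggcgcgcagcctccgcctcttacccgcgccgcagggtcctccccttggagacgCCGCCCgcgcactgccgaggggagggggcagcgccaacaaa
Col4a2: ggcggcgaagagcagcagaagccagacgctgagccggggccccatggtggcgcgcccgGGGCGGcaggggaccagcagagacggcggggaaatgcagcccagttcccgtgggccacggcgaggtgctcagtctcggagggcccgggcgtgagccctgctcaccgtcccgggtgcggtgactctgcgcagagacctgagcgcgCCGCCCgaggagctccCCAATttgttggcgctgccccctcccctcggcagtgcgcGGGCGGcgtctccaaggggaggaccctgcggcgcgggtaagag
The windows held 1 CCAAT box each and 1 and 3 GC boxes, with no TATAAA, and 74.0% and 73.7% of their bases were G or C. In all, 53 of the 73 matrix genes had a window in the table (59 windows), of which 55.9% held a GC box, 33.9% a CCAAT box and 16.95% a TATA box.

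Other ratios between chains were compared in the same way, 6 in all. With 3 libraries against 3 the smallest possible p is 0.1, so none can pass 0.05, and no adjustment would lower it. The ratio of Col1a1 to Col1a2, which assemble into type I collagen, was 0.634, 0.504 and 0.575 in NOD.B10 and 0.695, 0.766 and 0.793 in BL/10. All BL/10 values lay above those of NOD.B10 (exact two-sided permutation p = 0.1, the smallest possible). The ratio of Col6a3 to Col6a1 showed the reverse order, with 0.341, 0.420 and 0.347 in NOD.B10 and 0.283, 0.275 and 0.236 in BL/10 (exact permutation p = 0.1). The ratios of Col6a1 to Col6a2, Lamb2 to Lamb1 and Lama5 to Lama4 overlapped between strains (exact permutation p between 0.5 and 0.7). Lamb2 exceeded Lamb1 by 7.99 to 9.98 times per kb in all libraries.

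**Figure D4:**
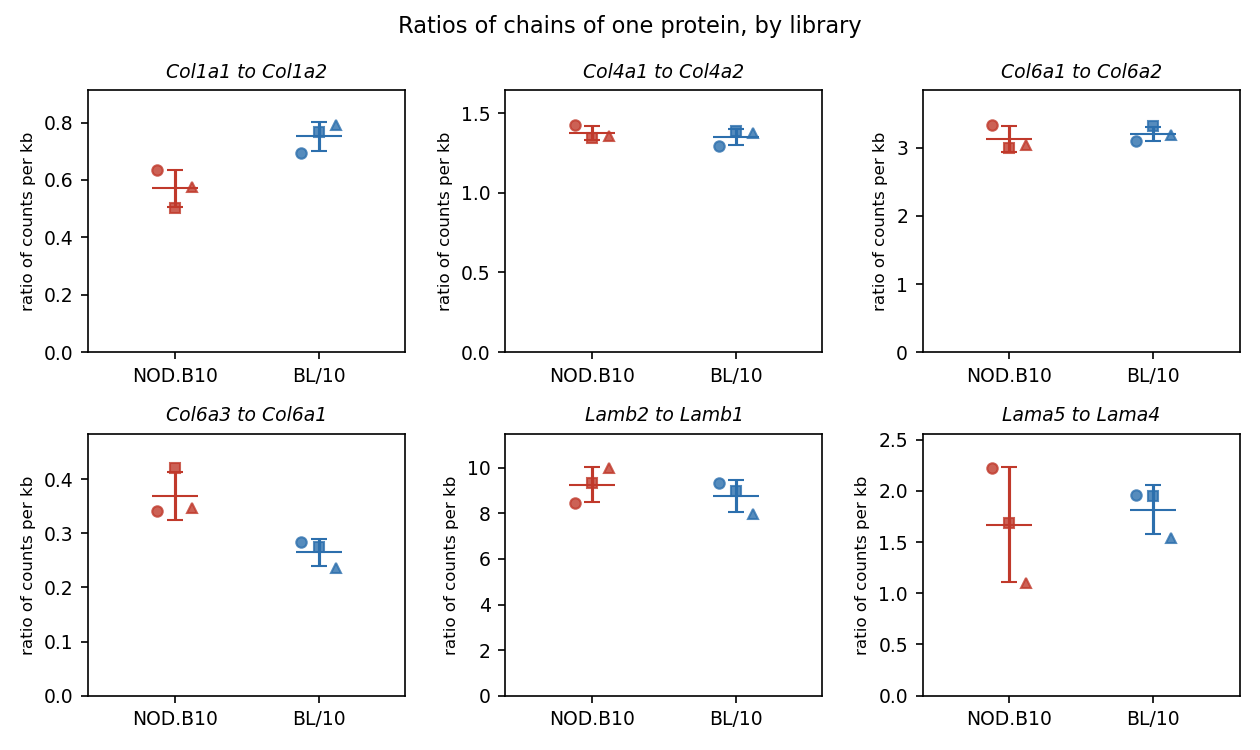
Ratio of counts per kb of exon of 2 chains in each library (axes from 0). Symbols mark replicates, and ticks with bars show the mean and SD of 3 libraries. The collagen pairs assemble into a trimer, and the laminin pairs are chains that replace each other in it. The ratios of Col1a1 to Col1a2 and Col6a3 to Col6a1 separate the strains, while that of Col4a1 to Col4a2 stays between 1.30 and 1.43 in all libraries.

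Fibronectin, an adhesive glycoprotein that guides fibril assembly, is encoded by Fn1 on chromosome 1 from 71585520 to 71653200. It had 110, 106 and 131 CPM in NOD.B10 and 129, 193 and 214 CPM in BL/10. The BL/10 library labelled 26 weeks lay within the range of NOD.B10, and those labelled 36 weeks lay above it. The log2 fold change was -0.63 (SE 0.19, edgeR adjusted p = 0.0583), and it was -0.16 (adjusted p = 0.608) without the libraries labelled 36 weeks. Without BL/10 replicate 1 it was -0.83 (adjusted p = 0.00318 in edgeR), and DESeq2 gave an adjusted p of 0.0117. It also passed with limma-voom, without the low-count filter and with the replicate block. Age and single libraries cannot be told apart for this gene. Besides Postn and Sparc, which were higher, the group of other matrix proteins holds Fn1, Tnxb, Tnc, Eln, Fbn1 and Vcan, of which none passed. Elastin (Eln) and fibrillin-1 (Fbn1), which form elastic fibers, had log2 fold changes of 0.17 each, and 20.1% of the exon bases of Fbn1 overlap another gene. Tnxb (tenascin X) and Col11a2 lie within the H2 region of chromosome 17, which both strains share, and their log2 fold changes were 0.29 and 0.18 (adjusted p = 0.346 and 0.483 in edgeR).

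The 9 matrix genes that were not tested are all collagens (Col2a1, Col9a1, Col9a2, Col10a1, Col11a1, Col19a1, Col24a1, Col25a1 and Col26a1). None had more than 12 counts in any library. Of these, Col2a1, Col9a1 and Col10a1, collagens of cartilage, had at most 2 counts in each of the 6 libraries. Col24a1 had 2, 4 and 6 counts in NOD.B10 and 0 in each BL/10 library, and differences at this depth were not tested.

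Genes that process, degrade or bind the matrix were examined as lists. Of 24 tested collagen-processing and cross-linking genes (of 25), none passed the threshold in edgeR and DESeq2 called 2. An unadjusted p under 0.05 was found for 9 of the 24, beside 34.2% of all tested genes. Serpinh1, the collagen chaperone Hsp47, had 73.0 ± 17.8 CPM in NOD.B10 and 78.2 ± 13.9 CPM in BL/10 (SD, n = 3 each). Of 18 tested metalloproteinases and inhibitors (of 20), 4 were lower in NOD.B10 (22.2%, background 8.22%) and none was higher. Mmp3, the stromelysin of fibroblasts, fell most, from 6.80 ± 1.55 CPM in BL/10 to 1.16 ± 0.228 CPM in NOD.B10 (log2 fold change -2.54, SE 0.25, edgeR adjusted p = 0.000666). Mmp8, Mmp9 and Mmp25, which neutrophils carry, had log2 fold changes of -1.61, -1.57 and -1.12 (adjusted p = 0.0046, 0.00614 and 0.0201 in edgeR). The neutrophil marker list (9 genes, all 9 lower) summed to 2119 to 2442 CPM in the NOD.B10 libraries and 6089 to 12752 CPM in those of BL/10, and its part in this result was not tested. Timp1, Timp2 and Timp3 did not pass.

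Of 25 tested matrix receptors (of 26), 6 were higher in NOD.B10 (24.0%, background 9.11%) and 1 was lower (4%, background 8.22%). The higher ones were the integrin chains Itga1 and Itga11, which bind collagen, Itga3, which binds laminin, Itga8 and Itgav, which bind RGD-containing matrix proteins such as fibronectin, and the syndecan Sdc1, which also marks plasma cells. Itga11 had 7.01 ± 1.0 CPM in NOD.B10 and 3.38 ± 0.762 CPM in BL/10 (log2 fold change 1.05, SE 0.21, edgeR adjusted p = 0.0137). Sdc1 had 33.2 ± 2.50 and 18.9 ± 3.95 CPM (log2 fold change 0.81, SE 0.15, edgeR adjusted p = 0.0114). Itga5, the alpha chain of the fibronectin receptor, was lower, with 14.0 ± 2.77 CPM in NOD.B10 and 24.5 ± 3.95 CPM in BL/10 (log2 fold change -0.80, SE 0.18, edgeR adjusted p = 0.0223). The smooth muscle list was higher in the same libraries as the 6 receptors (531 to 603 CPM against 365 to 476 CPM). So were the macrophage list, by a narrow margin, and the T cell list. The part of these cells in the receptor differences was not tested. The count of 7 called receptors was not stable, since 1 was called without NOD.B10 replicate 1 or 3 and 2 without BL/10 replicate 2 or without the libraries labelled 36 weeks.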

How the data were processed

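The authors prepared libraries from whole spleen with TruSeq kits and sequenced 50-cycle single-end reads on an Illumina instrument. The deposited table holds raw counts per gene from featureCounts 1.5.1 (exons, Ensembl 84, GRCm38, no strand setting, so sense and antisense reads are not told apart). Reads mapping to several places or genes were left out by default. The study's methods name Tophat2, and the submitters' processing notes name HISAT2 2.0.5. Reads of the NOD background were aligned to a C57BL/6 genome, and the effect of strain variants on counts was not tested.

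Symbols came from GENCODE M21 (47224 of 47729 identifiers matched). The members and gene lists were chosen with earlier results of these data known. Libraries were grouped by description and column name. Low counts were removed with filterByExpr, and the strains were compared with edgeR 4.0.16 (TMM, quasi-likelihood test, R 4.3.3) at an adjusted p of 0.05, with no covariate. The study used DESeq2, run here (1.42.0) as an alternative, with limma-voom (3.58.1), other scalings and filters, a replicate block and fits without single libraries. Genes named by rule were the members past the threshold, the 10 of highest level per length and the partner chains compared as ratios. From each pathway list, up to 4 genes a direction were named. Values of each library were printed for the members past the threshold (counts for Col22a1) and for some of the others. Other genes named were chosen after their values were seen. Chain ratios were compared with exact two-sided permutation tests. The edgeR, DESeq2 and limma-voom methods were tested on simulated counts for all 6 libraries, and the other alternative fits were not. Promoter windows came from RefSeq (GRCm38.p6). They were looked up for all members, and motifs were searched on both strands. The Myd88-deficient libraries named in the table's header were not analysed here. The values of 1 matrix gene are not reported here.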

Additional observations from a re-analysis of the deposited data

How the results depend on the processing

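With 3 libraries per strain, no exact test of a single ratio can pass, and, by the labels, age is partly confounded with strain. Of the 16 matrix genes called, Sparc, Postn, Col6a4, Col6a5, Col5a3, Col12a1, Col17a1, Col20a1, Col23a1 and Lum were called in all 15 alternatives. Col22a1 was called in the 14 that tested it, but it passed the low-count filter through BL/10 alone, and these calls add no support. The count of matrix genes called was 23 with DESeq2, 19 with limma-voom, 16 with RLE or upper-quartile scaling, 19 without the filter, 15 with at least 10 counts in every library, 16 without pancreas, hemoglobin and immunoglobulin genes, and 12 to 20 without single libraries (15 of the 20 without BL/10 replicate 3 were among the 16). Without both libraries labelled 36 weeks, where the lone BL/10 library was assumed to vary like those of NOD.B10, 14 were called, and 1001 of all genes and 2 receptors. Without single libraries, the call count over all genes lay between 1269 (without NOD.B10 replicate 1) and 4107 (without BL/10 replicate 1), the median log2 fold change of the matrix genes between 0.04 and 0.22, the collagen-processing count between 0 and 1, the metalloproteinase count between 3 and 5 and the receptor count between 1 and 7. The collagen-processing count of 0 became 2 with DESeq2 or without the filter and 1 with limma-voom, RLE, upper-quartile scaling, the 10-count minimum, or without pancreas, hemoglobin and immunoglobulin genes. In the main fit Loxl3 and Plod3 were nearest the threshold in this list, with adjusted p of 0.0532 and 0.0553 in edgeR. The cause of the changed count was not tested. The sign turned for Col3a1 with DESeq2 (-0.0045), RLE (-0.0046), no filter (-0.0041) and the 10-count minimum (-0.0051) and without NOD.B10 replicate 3 (-0.0959), BL/10 replicate 1 (-0.114) or 2 (-0.139). It also turned for Col6a1 and Col6a2 without the libraries labelled 36 weeks (0.165 and 0.157) or BL/10 replicate 3 (0.117 and 0.155), for Lama5 without NOD.B10 replicate 1 (-0.121) or BL/10 replicate 2 (-0.105), for Lamb1 without BL/10 replicate 1 (-0.0349) and for Lama4 without BL/10 replicate 2 (-0.0161). Over the fits without single libraries, the log2 fold changes reached 0.28 for Col3a1, -0.32 for Col6a1, -0.30 for Col6a2, 0.36 for Lamb1, 0.46 for Lama4 and 0.18 for Lama5 at the opposite end of their ranges.

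Replicate numbers were not found to pair the libraries, since the deviations of same-numbered libraries correlated at 0.05, 0.25 and -0.08. With the replicate block, 21 matrix genes were called (32.8%, against 18.8% of all genes), which included all 16. It also called 1 collagen-processing gene, and the split over all genes was 1388 higher and 1501 lower, against 1396 and 1260.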

Other observations

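Versican, a large proteoglycan of provisional matrix, was looked at after its values were seen, because 1 library stood apart. Vcan had 11, 10.5 and 3.88 CPM in NOD.B10 and 4.34, 4.49 and 4.43 CPM in BL/10, so that NOD.B10 replicate 3 lay below all BL/10 libraries while the other NOD.B10 libraries were over 2 times as high as any of them. Its edgeR adjusted p was 0.113, at a log2 fold change of 0.93 (SE 0.36).

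Lamc3 and Col15a1, also chosen after their values were seen, did not overlap between strains and did not pass the test. Other matrix genes shared this, such as Fmod, Col7a1, Col8a2, Col16a1 and Lama1. Libraries did not overlap for 38.0% of all tested genes, so this alone does not set them apart. Lamc3, a laminin gamma chain, had 4.91 ± 1.37 CPM in NOD.B10 and 2.66 ± 0.684 CPM in BL/10 (SD, n = 3 each, adjusted p = 0.0708 from edgeR). Col15a1, a collagen of basement membrane zones, had 3.44 ± 1.01 CPM in NOD.B10 and 6.29 ± 2.54 CPM in BL/10 (SD, n = 3 each, adjusted p = 0.108 from edgeR). Its highest library was BL/10 replicate 3 (9.21 CPM), which also had the most adipocyte and mesothelium transcripts, and their part was not tested.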
